A study of Mus musculus with 8 samples.

Results

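The comparison described here asks whether the distal colon of NAIL-ΔNFκB mice answers dextran sulfate sodium (DSS) differently from that of wild-type (WT) mice. It is the difference of 2 differences: the DSS response of ΔNFκB mice minus the DSS response of WT mice, each on the log2 scale. It draws on all 8 of the 8 libraries, and 17522 of 55418 gene symbols had enough reads to be tested. The mice were C57BL/6, aged 8 to 10 weeks, of 4 groups with 2 libraries each. WT untreated (WT-UT) and ΔNFκB untreated (ΔNFκB-UT) mice drank water without DSS. WT-DSS and ΔNFκB-DSS mice drank 3% DSS over 4 days and then water over 4 more days. Mice of the mutant line are called ΔNFκB below; what the change is and which bases differ from WT is not stated in the labels. Total RNA of the distal colon was sequenced, so each value is an average over epithelium, immune cells and gut wall. A lower value can mean fewer cells of a type or less RNA per cell, and these cannot be told apart.

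DSS is a sulfated polysaccharide that injures the colonic epithelium and lets gut bacteria reach the tissue beneath. Neutrophils and monocytes then enter, stromal cells lay down matrix, and the epithelium closes the wound by crypt proliferation before goblet cells and absorptive colonocytes are renewed. NF-κB is a family of transcription factors that drives many inflammatory genes, and p38 is a stress-activated kinase that acts beside it; the series describes NAIL as a noncoding RNA linking them. In the text, a positive difference means that a gene was higher after DSS, or less far below its untreated level, in ΔNFκB mice than the WT response would give. A negative difference means the reverse.

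The libraries held 9229861 to 16935961 assigned reads, and replicates correlated at r = 0.974 to 0.981 across genes on the log2 scale. Untreated and DSS libraries separated on the first principal component (52.3% of the variance), and WT-DSS and ΔNFκB-DSS on the second (24.6%). Y-linked transcripts showed that the groups were not matched for sex. WT-UT 2 and both ΔNFκB-UT libraries were male, with 233 to 248 CPM of Y-linked RNA (CPM, reads of a gene relative to the total of its library), while WT-UT 1 and all 4 DSS libraries were female, at 0.183 CPM or less. In ΔNFκB mice sex and DSS therefore cannot be told apart. RNA counted as ribosomal took 4.92% to 8.17% of the reads in DSS libraries and 1.93% to 3.18% in untreated ones. It was picked by gene symbol, which can take in other noncoding RNA and leaves out mitochondrial ribosomal RNA. The labels do not say whether a library is 1 mouse or a pool, so the p-values measure only the spread between these libraries. With 2 against 2, an exact permutation test cannot go below p = 0.333, and none is given for a single gene.

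DSS responses differed between the genotypes in 3102 of 17522 genes (17.7%; edgeR quasi-likelihood test, Benjamini-Hochberg adjusted p under 0.05). Of these, 1513 differences were positive (8.63% of the genes tested) and 1589 negative (9.07%). The difference was at least 2-fold in 2140 of them and at least 4-fold in 859. Without adjustment, 6127 genes had p under 0.05, and the median difference over all genes tested was -0.05. With 1 library left out, which also leaves fewer samples to test, the count was 3738 without WT-UT 1, 1595 without WT-UT 2, 1593 without WT-DSS 1, 909 without WT-DSS 2, 923 without ΔNFκB-UT 1, 2139 without ΔNFκB-UT 2, 1603 without ΔNFκB-DSS 1 and 512 without ΔNFκB-DSS 2. Without WT-UT 1 both untreated groups were all male and both DSS groups all female. In that fit 2703 of the 3102 genes (87.1%) were called again, and all 3102 had the same sign. With sex as a term in the model, 3772 genes were called, 2711 of them among the 3102. Only WT-UT held both sexes, so that term rests on WT-UT 1 against WT-UT 2. It is therefore much the same check as leaving out WT-UT 1, not a separate one. The part of sex in single genes was not tested otherwise.

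Both genotypes answered DSS with changes of similar number. In WT mice 3022 genes rose (17.2%) and 3293 fell (18.8%), and in ΔNFκB mice 2832 rose (16.2%) and 3367 fell (19.2%). These 2 responses share no library. They had 2933 called genes in common, which is 46.4% of the WT calls and 47.3% of the ΔNFκB calls. Of those, 2596 moved the same way (88.5%) and 337 moved in opposite directions (11.5%). Across all genes the responses correlated with Pearson r = 0.54 and Spearman rho = 0.41; genes are not independent replicates, and all points share the same libraries and depths. The difference uses the libraries of both responses, so its values are given below beside theirs.

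**Figure D1:**
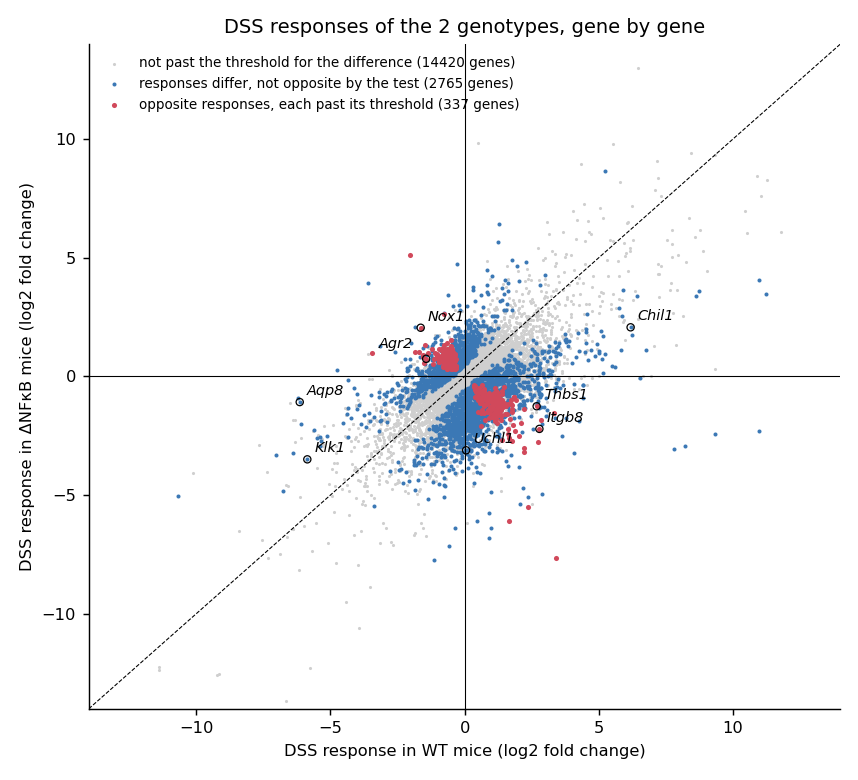
DSS response of each gene tested in WT mice (horizontal axis) and in ΔNFκB mice (vertical axis), both as log2 fold change. Each point is 1 of 17522 genes; the dashed line marks equal responses, blue the other genes whose responses differed, red the 337 that moved in opposite directions, grey the rest, and circles the genes named in the plot. The red points lie in the upper left and lower right, as for Nox1 and Thbs1.

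Most of the 3102 genes were called in 1 genotype only, which by itself is no test of the difference; the difference was tested here by the interaction term. ΔNFκB mice had a fall in 735 and a rise in 592 of them with no call in WT mice. WT mice had a fall in 559 and a rise in 456 with no call in ΔNFκB mice. A further 330 moved the same way in both genotypes by unequal amounts, more so in WT mice for 155 and in ΔNFκB mice for 175. In 93 neither response was called. The 337 opposite genes made up the rest: 168 fell in WT and rose in ΔNFκB mice (0.959% of the genes tested), and 169 rose in WT and fell in ΔNFκB mice (0.965%). Requiring both calls selects genes with large differences, so it was no further evidence that all 337 passed the test of the difference. The number of opposite genes was 516 without WT-UT 1, 178 without WT-UT 2, 198 without WT-DSS 1, 101 without WT-DSS 2, 141 without ΔNFκB-UT 1, 197 without ΔNFκB-DSS 1, 117 without ΔNFκB-DSS 2 and 102 with a sex term.

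The same 3102 genes can be read across genotypes instead of across treatment. Before DSS, 68 of all genes tested differed between the genotypes (0.388%); after DSS, 3499 did (20%). Those 2 comparisons share no library with each other, but each shares its libraries with the difference. Of the 3102 genes, 2310 (74.5%) also differed between genotypes after DSS and 67 before it; 37 did both and 762 neither. The size of the genotype difference was larger after DSS than before it in 2474 of them (79.8%). This size had a median of 0.36 (log2) before DSS and 0.90 after it in the 3102 genes, against 0.24 and 0.38 over all genes tested. In 2771 of the 3102 (89.3%) the genotype difference also had the opposite sign before and after. The difference of responses is the gap after DSS minus the gap before it, so choosing genes by it favours opposite signs. Gaps of at least 2-fold were present before DSS in 235 and after it in 1439. After DSS, the 2 ΔNFκB libraries lay outside the range of the 2 WT libraries in 98.0% of the 3102 genes. Over all genes tested the share was 68.1%. Before DSS these shares were 66.7% and 45.2%. Choosing genes by the difference of responses also favours wide gaps and groups that lie apart, so these values are no further evidence. The untreated count was not stable: it was 201 without WT-UT 1, 5 without WT-UT 2, 1 without ΔNFκB-UT 2 and 176 with a sex term. It was 0 in edgeR without WT-DSS 1, WT-DSS 2, ΔNFκB-UT 1, ΔNFκB-DSS 1 or ΔNFκB-DSS 2, where 2487, 2489, 1952, 2448 and 2494 genes had an unadjusted p under 0.05. DESeq2, run on all 8 libraries, called 264. The count after DSS was 1843 without WT-DSS 1, 948 without WT-DSS 2, 1626 without ΔNFκB-DSS 1 and 507 without ΔNFκB-DSS 2.

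**Figure D2:**
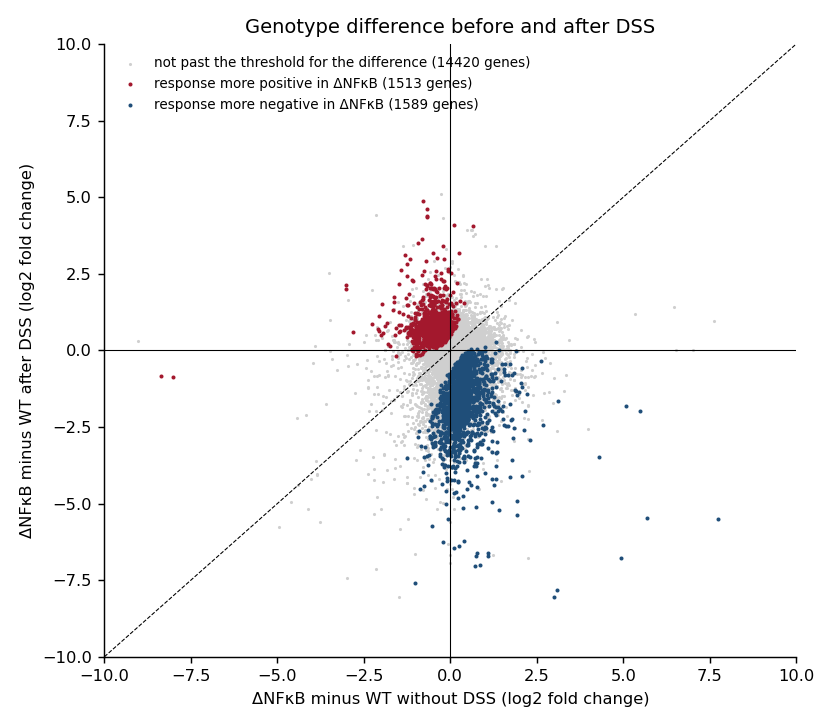
Genotype difference (ΔNFκB minus WT, log2) of each of the 17522 genes tested, without DSS (horizontal axis) and after DSS (vertical axis), with the dashed line at equal values. Coloured points are the 1513 genes with a positive (red) and the 1589 with a negative (blue) difference of responses, and grey points the rest. The coloured points spread more widely after DSS, where 1439 of them differ by at least 2-fold against 235 without DSS. Between the 2 conditions 2771 of them change sign, which choosing genes by the difference of responses favours.

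Among genes that fell in WT mice and rose in ΔNFκB mice, those with the smallest p included Nox1, Muc4, Fgfbp1 and Cip2a. Nox1 (chrX:134086421-134221956 in GRCm38.p6, the mm10 build) encodes the superoxide-producing oxidase of colonic epithelium, and its exons share 12.1% of their bases with Cstf2. It measured 77.4 and 69.3 CPM in WT-UT, 25.9 and 21.3 in WT-DSS, 25.6 and 36.5 in ΔNFκB-UT and 119 and 138 in ΔNFκB-DSS. WT-DSS fell to about the level of ΔNFκB-UT, while ΔNFκB-DSS stood above every other library. The WT response was -1.64 ± 0.19 and the ΔNFκB response 2.05 ± 0.19 (log2 ± SE), a difference of 3.68 ± 0.26 (adjusted p = 0.00171).

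Muc4, a membrane mucin of the epithelial surface, stood at 276 and 374 CPM in WT-UT, 88.5 and 92.8 in WT-DSS, 213 and 182 in ΔNFκB-UT and 399 and 414 in ΔNFκB-DSS. Its WT response was -1.84 and its ΔNFκB response 1.04, with a difference of 2.88 ± 0.23 (adjusted p = 0.00218). Both ΔNFκB-DSS libraries were above both WT-DSS libraries by several-fold, and both ΔNFκB-UT libraries below both WT-UT libraries. Fgfbp1, a secreted carrier of fibroblast growth factors, was at 50.7 and 63 CPM in WT-UT, 19.4 and 19.3 in WT-DSS, 32.9 and 28.6 in ΔNFκB-UT and 56.1 and 59.8 in ΔNFκB-DSS. Its groups stood in the order seen for Muc4, except that WT-UT and ΔNFκB-DSS overlapped, and the difference was 2.47 ± 0.20 (adjusted p = 0.00218). For Cip2a, an inhibitor of the phosphatase PP2A found in dividing cells, the values were 47.7 and 48.3 CPM in WT-UT, 24 and 25 in WT-DSS, 21.8 and 25.2 in ΔNFκB-UT and 48.8 and 55.4 in ΔNFκB-DSS. WT-DSS and ΔNFκB-UT overlapped near the lower level, and WT-UT and ΔNFκB-DSS lay close together near the upper one. The levels of the genotypes were exchanged after DSS, with a difference of 2.11 ± 0.18 (adjusted p = 0.00246).

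The genes that rose in WT mice and fell in ΔNFκB mice were led by Thbs1, Itgb8, Hmcn2, Spaca6 and Abcc9. Thbs1 (chr2:118111876-118127133) encodes thrombospondin 1, a matrix glycoprotein that can activate latent TGF-β. It was found at 68.1 and 51.4 CPM in WT-UT, 383 and 384 in WT-DSS, 82.2 and 87.9 in ΔNFκB-UT and 37.5 and 33.6 in ΔNFκB-DSS. The WT-DSS libraries were several-fold above all others and the ΔNFκB-DSS libraries below all others. The WT response was 2.68 ± 0.15, the ΔNFκB response -1.26 ± 0.15 and the difference -3.94 ± 0.21 (adjusted p = 3.97e-04). Itgb8, the β8 integrin subunit, which with αv also activates latent TGF-β, was at 6.23 and 5.1 CPM in WT-UT, 39.6 and 38.5 in WT-DSS, 9.23 and 7.97 in ΔNFκB-UT and 2.36 and 1.34 in ΔNFκB-DSS. No groups overlapped between the genotypes after DSS. The difference was -5.00 ± 0.34 (adjusted p = 0.00138), the largest in size of these 9 genes.

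Hmcn2, a large extracellular matrix protein of the fibulin family, measured 57.6 and 68.5 CPM in WT-UT, 100.2 and 90.6 in WT-DSS, 68.6 and 86.1 in ΔNFκB-UT and 18.6 and 17.9 in ΔNFκB-DSS. The fall in ΔNFκB mice (-2.08) was larger than the rise in WT mice (0.60), for a difference of -2.68 ± 0.21 (adjusted p = 0.00218). Abcc9 encodes the sulfonylurea receptor subunit of potassium channels in vascular mural cells and muscle. It was at 51.5 and 51.4 CPM in WT-UT, 141 and 213 in WT-DSS, 47.3 and 44.5 in ΔNFκB-UT and 21.1 and 19.3 in ΔNFκB-DSS, and the difference was -2.97 ± 0.26 (adjusted p = 0.00284). The 2 WT-DSS libraries differed from each other here more than the other pairs did, yet both were above all 6 other libraries. Spaca6, known as a sperm acrosome protein, was at 12.9 and 11.5 CPM in WT-UT, 25 and 29.2 in WT-DSS, 19.5 and 19.3 in ΔNFκB-UT and 6.97 and 5.56 in ΔNFκB-DSS, with a difference of -2.78 ± 0.24 (adjusted p = 0.00268). Its exons overlap the gene of the microRNA Mir125a by 0.665% of their bases. None of these 9 genes lost its call under any of the 18 alternatives tried.

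**Figure D3:**
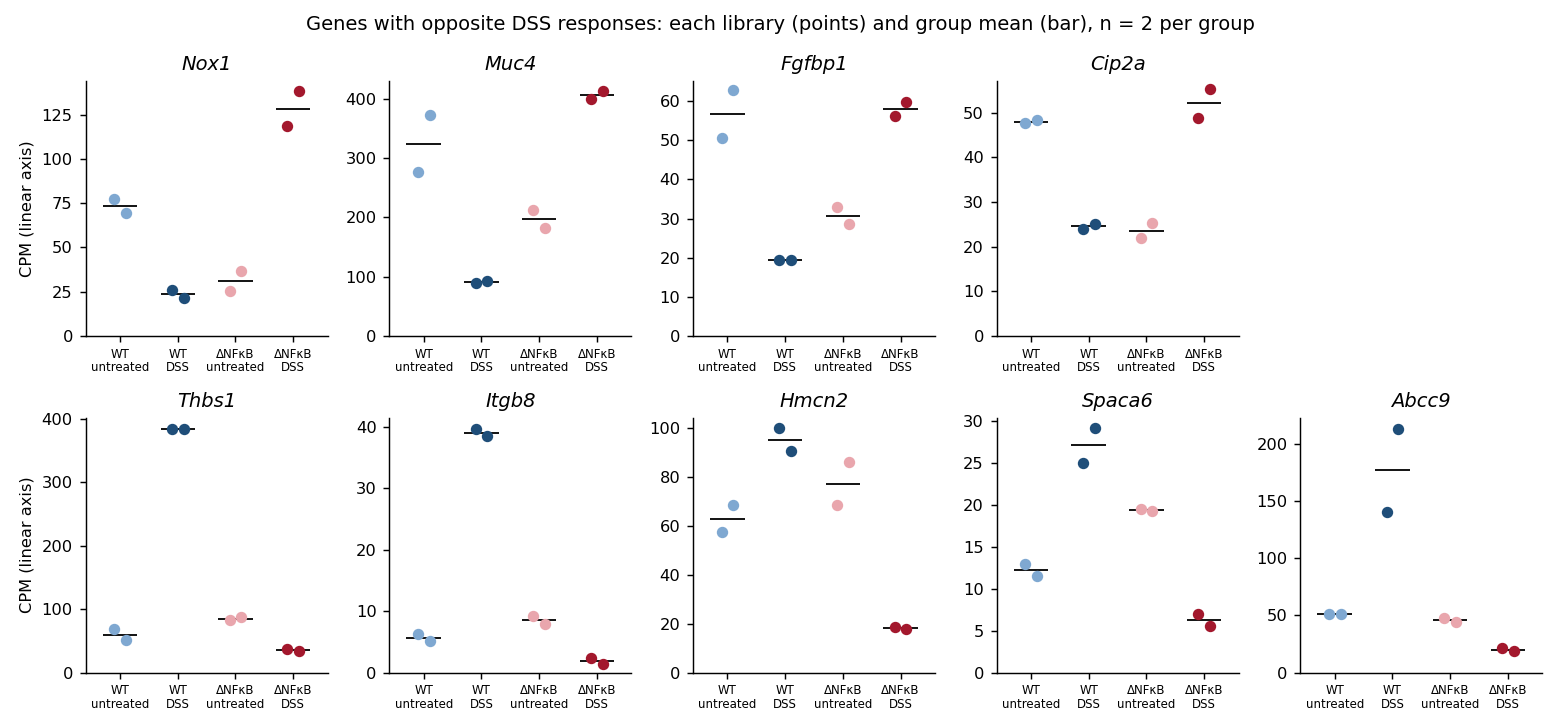
CPM on a linear axis from 0 of 9 leading genes with opposite responses, 1 panel per gene and 1 point per library, with 2 libraries in each of the 4 groups and a bar at each group mean. In the upper 4 genes DSS points lie below untreated points in WT (blue) and above them in ΔNFκB mice (red); in the lower 5 the order is the reverse, as for Thbs1 in ΔNFκB mice from 82.2 and 87.9 CPM to 37.5 and 33.6.

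Where both genotypes moved the same way, the 4 leading genes with the larger WT response all fell. Gal3st2c, a galactose sulfotransferase gene with near-identical paralogs beside it, so that its reads are uncertain, was at 85.7 and 87.2 CPM in WT-UT, 1.93 and 2.2 in WT-DSS, 76.1 and 75.2 in ΔNFκB-UT and 10.1 and 9.69 in ΔNFκB-DSS. It lost more in WT (-5.38) than in ΔNFκB mice (-2.93), a difference of 2.45 ± 0.18 (adjusted p = 0.00176). The chemokine gene Ccl6 stood at 153 and 158 CPM in WT-UT, 23 and 23.4 in WT-DSS, 77.8 and 83.5 in ΔNFκB-UT and 54.5 and 50.3 in ΔNFκB-DSS, with a difference of 2.12 ± 0.14 (adjusted p = 0.00138). The differences of Nxpe4 and Sval1 were 2.30 ± 0.19 and 2.62 ± 0.22 (adjusted p = 0.00218 and 0.00246). All 4 ended lower in both WT-DSS libraries than in either ΔNFκB-DSS library.

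Of the genes with the larger ΔNFκB response, Lrrc59 and E2f8 rose. Lrrc59, an endoplasmic reticulum protein that binds ribosomes, was at 121 and 115 CPM in WT-UT, 159 and 176 in WT-DSS, 76.9 and 79.5 in ΔNFκB-UT and 279 and 273 in ΔNFκB-DSS. The rise was 0.51 in WT and 1.82 in ΔNFκB mice, and the difference 1.31 ± 0.15 (adjusted p = 0.0048). E2f8, a repressor of the E2F family made in S phase, whose exons share 11.2% of their bases with Gm2788, had a difference of 1.56 ± 0.20 (adjusted p = 0.00622). Mfap3l and the matrix protease gene Adamts15 fell more in ΔNFκB mice, with differences of -2.25 ± 0.31 and -1.21 ± 0.17 (adjusted p = 0.00764 and 0.00764). Adamts15 began higher in the mutant line, at 146 and 145 CPM in ΔNFκB-UT against 79.2 and 66.5 in WT-UT, and ended at 45.8 and 44.1 against 55.1 and 48.7. Nbl1, a secreted antagonist of bone morphogenetic proteins, was not called in WT mice (0.34, adjusted p = 0.106) and fell in ΔNFκB mice (-2.21). Its difference was -2.56 ± 0.22 (adjusted p = 0.00268).

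**Figure D4:**
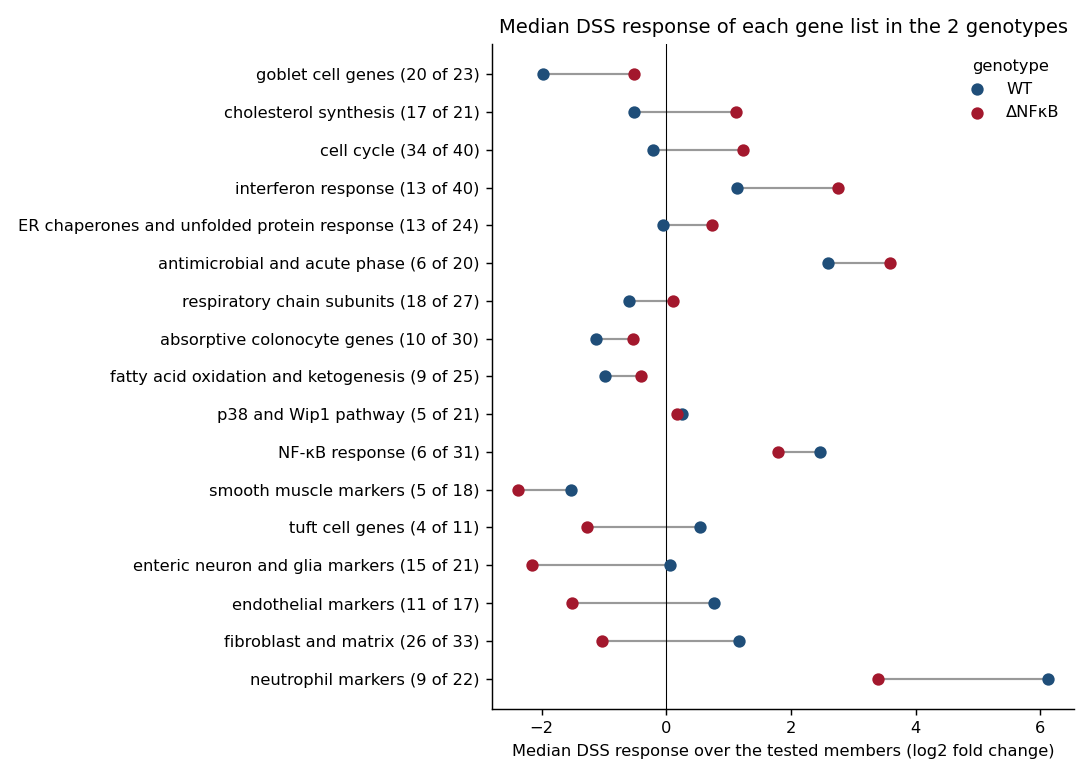
Median DSS response of 17 gene lists (log2 fold change) in WT mice (blue) and ΔNFκB mice (red), ordered by the median difference; the numbers after a list give its genes whose responses differed and its genes tested. Cell cycle, cholesterol and ER chaperone lists lie above 0 in ΔNFκB and below 0 in WT mice, and fibroblast, endothelial and neuron lists the other way round.

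Cell cycle genes separated the genotypes in 34 of 40 members (85%, against 17.7% of all genes tested), all with positive differences. In ΔNFκB mice 37 of the 40 rose after DSS. In WT mice 12 fell and 5 rose, and 10 genes moved in opposite directions. Over all genes tested, 16.2% rose in ΔNFκB mice, while 18.8% fell and 17.2% rose in WT mice. The median over the list was 1.36 for the difference, -0.21 for the WT response and 1.24 for the ΔNFκB response, against -0.05, 0.00 and -0.04 over all genes tested. Top2a, the topoisomerase that untangles replicated DNA, was at 249 and 289 CPM in WT-UT, 171 and 157 in WT-DSS, 149 and 143 in ΔNFκB-UT and 299.97 and 325 in ΔNFκB-DSS. Its difference was 1.81 ± 0.17 (adjusted p = 0.00361). The kinesin gene Kif11, which drives spindle poles apart, measured 79 and 85.3 CPM in WT-UT, 48.8 and 49.2 in WT-DSS, 37.8 and 45.5 in ΔNFκB-UT and 78.8 and 86 in ΔNFκB-DSS, and Mki67, the Ki-67 proliferation marker, 572 and 575 CPM in WT-UT, 374 and 351 in WT-DSS, 281 and 311 in ΔNFκB-UT and 560.4 and 604 in ΔNFκB-DSS. In all 3 genes the levels of WT-UT and ΔNFκB-DSS were close, while WT-DSS and ΔNFκB-UT lay lower. Their differences were 1.73 ± 0.17 and 1.64 ± 0.17 for Kif11 and Mki67 (adjusted p = 0.00421 and 0.00421).

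Before treatment, 11 of the 40 cell cycle genes were called lower in untreated ΔNFκB than in untreated WT mice. Over all genes tested, 68 of 17522 (0.388%) were called in this comparison, in either direction. These calls were not stable: edgeR called no gene at all between the untreated groups with a replicate block (2824 genes at an unadjusted p under 0.05) or without any 1 of the 5 libraries named above for that comparison. The summed level was 2073 and 2257 CPM in WT-UT, 1718 and 1599.6 in WT-DSS, 1120.2 and 1244 in ΔNFκB-UT and 2535 and 2642 in ΔNFκB-DSS. In this sum both WT-UT libraries were above the 2 ΔNFκB-UT libraries. The part of sex in the untreated level of this list was not tested. The median genotype difference over the list was -0.74 without DSS and 0.56 after it. The members without a call were Ccne2, Mcm2, Gins1, Ccne1, E2f1 and Cdt1, with Cdt1 at -0.16 the one below 0. The number of calls was 19 without ΔNFκB-DSS 2, 21 without WT-DSS 2 and 22 without ΔNFκB-UT 1 or ΔNFκB-DSS 1.

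The promoters of the 3 leading genes are shown because the list moved together. The sequences are the 250 bases before the RefSeq gene start in GRCm38.p6, read 5′ to 3′ on the strand of the gene. They run over chr11:99024190-99024439 (minus strand), chr19:37376132-37376381 (plus strand) and chr7:135716380-135716629 (minus strand). Capitals mark CCAAT (a box bound by NF-Y) and TTTGAA (the cell cycle homology region, CHR), on either strand, where the reverse strand reads ATTGG and TTCAAA.
Top2a: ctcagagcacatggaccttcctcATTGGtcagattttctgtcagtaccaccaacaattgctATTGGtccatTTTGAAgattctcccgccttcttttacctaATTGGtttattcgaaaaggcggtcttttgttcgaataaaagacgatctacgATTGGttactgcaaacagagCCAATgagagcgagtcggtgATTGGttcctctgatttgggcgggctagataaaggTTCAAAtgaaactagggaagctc
Kif11: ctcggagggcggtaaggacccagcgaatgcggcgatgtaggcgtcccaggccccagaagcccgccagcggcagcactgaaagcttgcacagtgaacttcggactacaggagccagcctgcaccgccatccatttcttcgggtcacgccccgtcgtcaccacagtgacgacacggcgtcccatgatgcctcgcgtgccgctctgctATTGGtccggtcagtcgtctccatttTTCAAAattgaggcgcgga
Mki67: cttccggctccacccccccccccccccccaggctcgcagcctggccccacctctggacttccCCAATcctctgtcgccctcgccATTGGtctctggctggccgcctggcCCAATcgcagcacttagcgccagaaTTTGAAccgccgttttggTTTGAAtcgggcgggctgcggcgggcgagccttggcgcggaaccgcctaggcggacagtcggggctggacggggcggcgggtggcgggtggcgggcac
Windows of 300 bases, reaching 50 bases past the start, were on hand for 31 of the 40 genes. CCAAT was in 24 of them (77.4%) and TTTGAA in 14 (45.2%), against 38.3% and 12.6% of the 11618 windows of genes tested and 37.9% and 18.1% of all 27025 windows. Over all genes with a positive difference, 47.6% of 1088 windows held CCAAT, and over those with a negative difference 34.8% of 1088. A match is a description of letters, not of a bound site.

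Genes of cholesterol synthesis and uptake followed the same pattern, with 17 of 21 differences called (81%, against 17.7% of all genes tested), all positive. The value was above 0 in all 21. In ΔNFκB mice 17 rose; in WT mice 9 fell, and 7 moved in opposite directions. Medians of the list were 1.40 for the difference, -0.52 in WT and 1.11 in ΔNFκB mice. Hmgcs1, which makes the HMG-CoA from which mevalonate is formed, was at 340.1 and 336 CPM in WT-UT, 238 and 188 in WT-DSS, 220.4 and 201 in ΔNFκB-UT and 425 and 501 in ΔNFκB-DSS; 12.1% of its exon bases overlap Gm48342. Its difference was 1.81 ± 0.21 (adjusted p = 0.00535). Sqle, squalene epoxidase, a later rate-limiting step, stood at 122 and 129 CPM in WT-UT, 94.4 and 81.2 in WT-DSS, 96.7 and 87 in ΔNFκB-UT and 179 and 199 in ΔNFκB-DSS, with a difference of 1.56 ± 0.17 (adjusted p = 0.00473). For both genes the 2 ΔNFκB-DSS libraries were above all 6 others, and WT-DSS overlapped ΔNFκB-UT. The regulator Srebf2 was not called (0.35 ± 0.16, adjusted p = 0.148). The count of calls was 10 without ΔNFκB-DSS 2.

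The Hmgcs1 promoter is printed because it holds both CCAAT and a sterol regulatory element, spelled TCACNCCAC in this search and added after the values were seen. The 250 bases are those of chr13:119690101-119690350 (plus strand), with both motifs in capitals.
Hmgcs1: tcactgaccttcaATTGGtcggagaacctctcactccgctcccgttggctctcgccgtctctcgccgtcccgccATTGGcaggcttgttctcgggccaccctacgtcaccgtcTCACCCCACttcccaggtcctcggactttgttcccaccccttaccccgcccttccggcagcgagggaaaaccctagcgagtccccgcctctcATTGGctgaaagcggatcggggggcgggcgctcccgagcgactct
Among 13 windows of the list, 12 held CCAAT (92.3%) and 1 held this spelling of the element, which was in 1.1% of the windows of genes tested.

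Endoplasmic reticulum chaperones, which fold secreted and membrane proteins, had 13 called differences of 24 (54.2%, against 17.7% of all genes tested), all positive. Of the 24, 18 rose in ΔNFκB mice, while 6 fell and 1 rose in WT mice, and 6 moved in opposite directions. Over its members the median difference was 1.02, with median responses of -0.05 in WT and 0.74 in ΔNFκB mice. Hsp90b1, the chaperone GRP94, was at 542 and 753 CPM in WT-UT, 376 and 344 in WT-DSS, 423 and 440.1 in ΔNFκB-UT and 706 and 818 in ΔNFκB-DSS, with 15.7% of its exon bases shared with another gene. The difference was 1.67 ± 0.24 for Hsp90b1, 1.48 ± 0.18 for Pdia6 and 1.37 ± 0.20 for Pdia3, both disulfide isomerases (adjusted p = 0.00809, 0.00567 and 0.00809). Among members that signal stress rather than fold proteins, Xbp1 was called at 1.03. The others were not, with Atf4 at 0.35, Ddit3 at -0.49, Trib3 at 0.39 and Atf6 at -0.18. The count was 4 without ΔNFκB-DSS 2, 7 without WT-DSS 2 and 8 without ΔNFκB-UT 1.

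Subunits of the mitochondrial respiratory chain and ATP synthase, all nuclear-encoded, had 18 of 27 called differences, all positive and small. That is 66.7%, against 17.7% of all genes tested. In WT mice 21 fell and in ΔNFκB mice 5 rose and 1 fell. In the median, the members responded by -0.59 in WT mice and 0.10 in ΔNFκB mice and differed by 0.70. Ndufa9, a complex I subunit, measured 99 and 109 CPM in WT-UT, 57.4 and 58.6 in WT-DSS, 71.9 and 79.2 in ΔNFκB-UT and 75.9 and 77 in ΔNFκB-DSS. WT-DSS was below every other library, and ΔNFκB-DSS lay within the range of ΔNFκB-UT; the difference was 0.86 ± 0.15 (adjusted p = 0.0115). Cox5a of complex IV and Uqcrfs1 of complex III had differences of 0.86 ± 0.16 and 0.84 ± 0.16 (adjusted p = 0.0133 and 0.0144). All 3 calls were lost without ΔNFκB-DSS 2, those of Cox5a and Uqcrfs1 also without ΔNFκB-UT 1 and that of Uqcrfs1 without WT-DSS 2. The count was 0 without ΔNFκB-DSS 2, 1 without ΔNFκB-UT 1, 2 without WT-DSS 2, 4 without WT-DSS 1, 8 without WT-UT 2 and 9 without ΔNFκB-UT 2. Mitochondrially encoded RNA, which is not in the list, took 15.0% and 17.6% of the reads in WT-UT, 7.27% and 9.66% in WT-DSS, 16.9% and 15.6% in ΔNFκB-UT and 9.32% and 14.02% in ΔNFκB-DSS. Its part in the result was not tested.

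Fatty acid oxidation, the main fuel route of colonocytes for bacterial butyrate, had 9 called differences of 25, 8 of them positive. That is 36%, against 17.7% of all genes tested. WT mice had falls in 19 and ΔNFκB mice in 12. The median over the list was 0.38 for the difference, -0.99 for the WT response and -0.40 for the ΔNFκB response. Acat1, the mitochondrial acetoacetyl-CoA thiolase, was at 139.8 and 137 CPM in WT-UT, 62.8 and 57.7 in WT-DSS, 106 and 95 in ΔNFκB-UT and 80.3 and 85.9 in ΔNFκB-DSS, with a difference of 0.93 ± 0.15 (adjusted p = 0.00992). Cpt2, which hands long-chain fatty acids to the matrix, had 0.91 ± 0.19 (adjusted p = 0.0175). The calls for Acat1 and Cpt2 were lost without ΔNFκB-DSS 2, and that for Cpt2 also without WT-DSS 2. The count was 0 without ΔNFκB-DSS 2, 2 without WT-DSS 2, 3 without ΔNFκB-UT 1, 4 without ΔNFκB-UT 2 and 5 without WT-DSS 1.

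Goblet cells make the mucus that separates bacteria from the epithelium, and their genes were lost after DSS less in ΔNFκB than in WT mice. Differences were called in 20 of 23 (87%, against 17.7% of all genes tested), 19 positive and 1 negative. In WT mice 19 of the genes fell, and in ΔNFκB mice 11 fell and 5 rose. Medians of the list were 1.74 for the difference, -1.97 in WT and -0.52 in ΔNFκB mice. Klk1, a kallikrein protease of colonic goblet cells, was at 952 and 1145 CPM in WT-UT, 18.6 and 17.5 in WT-DSS, 849 and 712 in ΔNFκB-UT and 77.5 and 61 in ΔNFκB-DSS, with a difference of 2.36 ± 0.24 (adjusted p = 0.00421). Agr2, the disulfide isomerase needed to fold mucin, was at 567 and 743 CPM in WT-UT, 226 and 259 in WT-DSS, 383 and 366 in ΔNFκB-UT and 638 and 613 in ΔNFκB-DSS, and it fell in WT (-1.43) and rose in ΔNFκB mice (0.74). Its difference was 2.17 ± 0.22 (adjusted p = 0.00421). Muc2, the gel-forming mucin itself, fell by 1.97 in WT mice and stood at -0.03 in ΔNFκB mice, with 5535 and 8426 CPM in WT-UT, 1400.2 and 2154 in WT-DSS, 4871 and 5265 in ΔNFκB-UT and 5594 and 4356 in ΔNFκB-DSS. The member that went the other way, Guca2a, encodes guanylin and is also made by colonocytes; it fell in both genotypes, and its difference was -1.65 ± 0.45. The count was 11 without ΔNFκB-UT 1 and 13 without ΔNFκB-DSS 1 or ΔNFκB-DSS 2.

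Summed goblet levels, counted over the list, were 20901 and 28949 CPM in WT-UT, 3644 and 4515 in WT-DSS, 17686 and 19237 in ΔNFκB-UT and 11979.6 and 9921 in ΔNFκB-DSS. Both WT-DSS libraries were well below all 6 others. General epithelial markers (Epcam, Cdh1, Krt8, Krt18, Cldn3, Cldn7, Elf3, Cdx1 and Cdx2), chosen after the data were seen, summed to 6803 and 8428 CPM in WT-UT, 5247 and 4684 in WT-DSS, 6255 and 7281 in ΔNFκB-UT and 6811 and 7230.2 in ΔNFκB-DSS. Krt8 and Krt18 had called positive differences among these 9. WT-DSS was therefore also lowest in this sum, by far less than in the goblet sum. The single markers were divided. Epcam, Cdh1, Krt8 and Krt18 were lowest in both WT-DSS libraries, while Cldn3, Cldn7, Elf3, Cdx1 and Cdx2 were not. The part that general epithelial RNA has in the epithelial lists was not tested.

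Absorptive colonocyte genes gave a mixed picture, with 8 positive and 2 negative called differences of 30 (33.3%, against 17.7% of all genes tested). In WT mice 18 fell, and in ΔNFκB mice 13 fell and 3 rose. Over its members the median difference was 0.69, with median responses of -1.13 in WT and -0.53 in ΔNFκB mice; the median difference was 0.36 without WT-UT 2. Aqp8, the apical water channel of surface colonocytes, was at 243 and 650.4 CPM in WT-UT, 7.63 and 5.04 in WT-DSS, 189 and 376 in ΔNFκB-UT and 153 and 114 in ΔNFκB-DSS. It fell by 6.14 in WT mice and was not called in ΔNFκB mice (-1.08 ± 0.46), a difference of 5.06 ± 0.73 (adjusted p = 0.00771). Aqp4, a basolateral water channel, was at 251 and 643 CPM in WT-UT, 359 and 415 in WT-DSS, 126 and 88.2 in ΔNFκB-UT and 804 and 899.6 in ΔNFκB-DSS; its replicates in WT-UT differed more than 2-fold, and its difference was 3.20 ± 0.54 (adjusted p = 0.011). Car1, the cytosolic carbonic anhydrase, went the other way, at 1644 and 1409 CPM in WT-UT, 289 and 301 in WT-DSS, 872 and 1279 in ΔNFκB-UT and 77.7 and 67.3 in ΔNFκB-DSS, with -1.52 ± 0.27 (adjusted p = 0.0131). The calls for Aqp4 and Car1 were lost without ΔNFκB-DSS 2. The count was 1 without ΔNFκB-DSS 2, 3 without WT-DSS 2 or ΔNFκB-UT 1 and 6 without WT-DSS 1 or ΔNFκB-DSS 1.

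Tuft cell genes, which mark the chemosensory cells of the epithelium, had 4 of 11 called differences, all negative. That is 36.4%, against 17.7% of all genes tested. In the median, the members responded by 0.55 in WT mice and -1.26 in ΔNFκB mice and differed by -1.22; the median difference was -0.76 without WT-DSS 1, -0.67 without ΔNFκB-UT 1 and -0.42 with no count filter. Alox5ap, needed for leukotriene synthesis, was at 3.43 and 1.95 CPM in WT-UT, 18.4 and 18.7 in WT-DSS, 3.39 and 3.01 in ΔNFκB-UT and 3.69 and 4.43 in ΔNFκB-DSS, with a difference of -2.45 ± 0.40 (adjusted p = 0.00993); 13.3% of its exon bases overlap another gene. Dclk1 and Ptgs1 had -1.62 ± 0.34 and -1.75 ± 0.40 (adjusted p = 0.0189 and 0.0241). The call for Dclk1 was lost without WT-UT 2 or WT-DSS 2 or ΔNFκB-UT 1 or ΔNFκB-DSS 2, and that for Ptgs1 without WT-DSS 2 or ΔNFκB-UT 1 or ΔNFκB-UT 2 or ΔNFκB-DSS 1 or ΔNFκB-DSS 2. Alox5ap, Alox5, Ptgs1 and Hpgds are also made by leukocytes, while the tuft-restricted Trpm5 and Rgs13 were not called (1.49 and 1.10). The count was 1 without WT-DSS 2 or ΔNFκB-DSS 2 and 2 without ΔNFκB-UT 2 or ΔNFκB-DSS 1.

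Of 40 interferon-stimulated genes, 25 rose in WT and 37 in ΔNFκB mice. The difference was called in 13 (32.5%, against 17.7% of all genes tested), all positive, and 38 of the 40 differences were above 0. The median over the list was 1.22 for the difference, 1.13 for the WT response and 2.76 for the ΔNFκB response; the median difference was 0.65 without ΔNFκB-DSS 2. Oasl2, an antiviral synthetase-like protein, was at 18.4 and 29 CPM in WT-UT, 43.4 and 42.1 in WT-DSS, 11.1 and 9.76 in ΔNFκB-UT and 105 and 200.2 in ΔNFκB-DSS. Its ΔNFκB-DSS libraries differed by almost 2-fold, but both were above all others; the difference was 3.02 ± 0.44 (adjusted p = 0.00809). Zbp1, a sensor of Z-form nucleic acid that can start necroptosis, stood at 11.7 and 28.4 CPM in WT-UT, 39.8 and 42 in WT-DSS, 6.07 and 6.83 in ΔNFκB-UT and 94.2 and 149 in ΔNFκB-DSS, with 3.21 ± 0.54 (adjusted p = 0.011). Psmb10, an immunoproteasome subunit, was not called in WT mice (0.04, adjusted p = 0.86), rose by 1.47 in ΔNFκB mice and differed by 1.43 ± 0.24 (adjusted p = 0.0103). The calls for Zbp1 and Psmb10 were lost without ΔNFκB-DSS 2, and the list's count was 2 without ΔNFκB-DSS 2, 5 without WT-UT 2 or WT-DSS 1 or ΔNFκB-UT 1 or ΔNFκB-UT 2 and 6 without WT-DSS 2. The interferon element (ISRE: TTTC, any 2 bases, TTTC, on either strand) was in 16 of 29 windows (55.2%) and in 3.2% of the windows of genes tested. The 13 called members include 3 immunoproteasome subunits and antiviral effectors, whereas the chemokines Cxcl9, Cxcl10 and Cxcl11 were not called, at 0.18, 1.36 and 2.70.

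Of 22 neutrophil genes, 20 rose in WT and 18 in ΔNFκB mice. The difference was called in 9 (40.9%, against 17.7% of all genes tested). Of these, 8 were negative and 1 positive, and 13 members did not pass. Medians of the list were -2.8 for the difference, 6.12 in WT and 3.40 in ΔNFκB mice; with members absent from a group set at the limit of 3 reads, these medians were -2.73, 5.72 and 3.05. Mmp9, the gelatinase of neutrophil granules, was at 1.04 and 0.939 CPM in WT-UT, 24.5 and 21.4 in WT-DSS, 1.03 and 0.895 in ΔNFκB-UT and 4 and 3.81 in ΔNFκB-DSS. The WT-DSS libraries were several-fold above the ΔNFκB-DSS libraries, and the untreated groups overlapped; the difference was -2.52 ± 0.34 (adjusted p = 0.00732). Clec4d, a lectin receptor of myeloid cells, was at 0.240 and 0.335 CPM in WT-UT, 10.8 and 9.34 in WT-DSS, 0.315 and 0.488 in ΔNFκB-UT and 1.23 and 1.85 in ΔNFκB-DSS, with -3.15 ± 0.62 (adjusted p = 0.0161), a call lost without ΔNFκB-UT 2. S100a9, a subunit of calprotectin, named here after its values were seen, was at 0.160 and 0.335 CPM in WT-UT, 76.6 and 147 in WT-DSS, 3.23 and 0.0813 in ΔNFκB-UT and 19.6 and 21.7 in ΔNFκB-DSS. Here ΔNFκB-UT 1 stood above the other untreated libraries.

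Cd177, a surface protein of neutrophils, was the member with the positive difference. It was at 84.9 and 71.5 CPM in WT-UT, 89.8 and 85.4 in WT-DSS, 47.2 and 65.4 in ΔNFκB-UT and 319 and 269 in ΔNFκB-DSS, not called in WT mice (0.16, adjusted p = 0.479) and up by 2.38 in ΔNFκB mice, a difference of 2.22 ± 0.25 (adjusted p = 0.00473). Its untreated level was well above that of the other members named here, Mmp9 at 1.04 and 0.939 CPM in WT-UT for example. General leukocyte markers (Ptprc, Laptm5 and Coro1a), chosen after the data were seen, summed to 45.5 and 99.1 CPM in WT-UT, 345 and 205 in WT-DSS, 166 and 58 in ΔNFκB-UT and 213 and 128 in ΔNFκB-DSS. WT-DSS and ΔNFκB-DSS overlapped in this sum, and ΔNFκB-UT 1 was above ΔNFκB-DSS 2. Ptprc, the most abundant, overlapped too, but Laptm5 and Coro1a did not. Laptm5 was at 64.6 and 51.4 CPM in WT-DSS and 39.8 and 25.4 in ΔNFκB-DSS. Coro1a was at 71.1 and 47.9 in WT-DSS and 34.2 and 14.7 in ΔNFκB-DSS. The differences of Ptprc, Laptm5 and Coro1a were -1.15, -1.38 and -1.79, none of them called. The number of neutrophil calls was 3 without WT-DSS 2 or ΔNFκB-UT 1 or ΔNFκB-DSS 1 or ΔNFκB-DSS 2 and 4 without WT-UT 2, and 3 by limma-voom.

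Of 31 genes induced through NF-κB, 29 rose in WT mice, and in ΔNFκB mice 18 rose and 1 fell. The difference was called in 6, all negative, a share (19.4%) near the 17.7% of all genes tested. After DSS, 15 of the 31 were called between the genotypes, against 20% of all genes tested. The median genotype difference after DSS was -0.66. Of the list's differences of responses, 22 were below 0 and 9 above. Over its members the median difference was -0.59, with median responses of 2.46 in WT and 1.79 in ΔNFκB mice; the median difference was -1.11 without WT-UT 2. Ptgs2, the inducible cyclooxygenase of prostaglandin synthesis, was at 8.3 and 7.38 CPM in WT-UT, 61.9 and 139 in WT-DSS, 13.5 and 9.92 in ΔNFκB-UT and 6.86 and 11.3 in ΔNFκB-DSS. Both WT-DSS libraries were above all 6 others, which overlapped; the difference was -4.05 ± 0.57 (adjusted p = 0.00764). Tnfaip2 stood at 4.39 and 3.69 CPM in WT-UT, 59.9 and 49.3 in WT-DSS, 6.31 and 5.53 in ΔNFκB-UT and 19.9 and 21.3 in ΔNFκB-DSS, with a difference of -1.96 ± 0.24 (adjusted p = 0.00615). Relb, a subunit of the noncanonical NF-κB dimer, had -0.96 ± 0.19 (adjusted p = 0.0152), lost without ΔNFκB-DSS 2, and its partner Nfkb2 had -0.80 ± 0.23. Vcam1, the adhesion molecule of activated endothelium, and Traf1 were the other called members, at -2.21 and -2.07.

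Among the members not called were 3 that are named after their values were seen. Nfkbia was at 0.07 ± 0.32 (adjusted p = 0.894), Tnfaip3 at 0.05 ± 0.40 (adjusted p = 0.941) and Cxcl1 at -0.59 ± 1.48 (adjusted p = 0.801). Rela, which encodes the p65 subunit, was at 28.6 and 30.7 CPM in WT-UT, 47.8 and 43.8 in WT-DSS, 30 and 33.5 in ΔNFκB-UT and 45.9 and 43.3 in ΔNFκB-DSS. It rose in both genotypes (0.63 and 0.49), and the difference was -0.14 ± 0.17 (adjusted p = 0.592). The cytokine genes were noisy: Il1b measured 1.12 and 2.48 CPM in WT-UT, 151 and 48.7 in WT-DSS, 1.81 and 0.651 in ΔNFκB-UT and 16.4 and 31.1 in ΔNFκB-DSS, a difference of -1.50 ± 1.09 (adjusted p = 0.355), and Tnf 0.240 and 1.48 CPM in WT-UT, 11.5 and 8.79 in WT-DSS, 0.789 and 0.407 in ΔNFκB-UT and 8.61 and 14.4 in ΔNFκB-DSS, a difference of 0.75 ± 0.89 (adjusted p = 0.579), which was -1.12 without WT-UT 2. Il6 was at 0 and 0.0671 CPM in WT-UT, 2.41 and 12.4 in WT-DSS, 0 and 0 in ΔNFκB-UT and 0.102 and 0.412 in ΔNFκB-DSS; with no read in ΔNFκB-UT, its fitted difference is no estimate, and the test gave an adjusted p of 0.928. A missed threshold does not show that these responses were alike. The list's count was 2 without ΔNFκB-DSS 2 and 3 without WT-DSS 2 or ΔNFκB-UT 1 or ΔNFκB-DSS 1. An NF-κB site, spelled GGGA, any 2 bases, TTCC, on either strand, was in 5 of 22 windows of the list (22.7%) and in 1.5% of those of genes tested.

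Antimicrobial and acute phase genes split, with 4 positive and 2 negative called differences of 20 (30%, against 17.7% of all genes tested). In the median, the members responded by 2.59 in WT mice and 3.59 in ΔNFκB mice and differed by 0.75; the median difference was -0.041 without WT-UT 2, 1.15 without WT-UT 1 and 1.17 with a sex term. Zg16, a lectin of the mucus that binds Gram-positive bacteria and is also a goblet cell gene, was at 1919 and 2918 CPM in WT-UT, 169.9 and 193 in WT-DSS, 1516 and 1424 in ΔNFκB-UT and 562 and 404 in ΔNFκB-DSS, with a difference of 2.13 ± 0.33 (adjusted p = 0.0089). Slpi and Wfdc18, of the whey acidic protein family, and Pigr, which carries antibody to the lumen, were the other positive members, at 2.51, 2.01 and 0.74. The negative members were Chil1 at -4.12 ± 0.97 and Lcn2, which binds bacterial siderophores, at -3.34 ± 0.86 (adjusted p = 0.0276 and 0.0343). Lcn2 measured 1.12 and 2.15 CPM in WT-UT, 55.5 and 139.7 in WT-DSS, 2.84 and 1.06 in ΔNFκB-UT and 13.4 and 9.27 in ΔNFκB-DSS, so WT-DSS was above ΔNFκB-DSS in both libraries with a wide spread. Its call was lost by limma-voom, with a sex term and without WT-UT 1 or WT-UT 2 or WT-DSS 2 or ΔNFκB-UT 1 or ΔNFκB-DSS 1 or ΔNFκB-DSS 2, and that of Chil1 without WT-DSS 1 or WT-DSS 2 or ΔNFκB-UT 1 or ΔNFκB-UT 2 or ΔNFκB-DSS 2. The count was 1 without ΔNFκB-UT 1 or ΔNFκB-DSS 2, 2 without ΔNFκB-UT 2 or ΔNFκB-DSS 1 and 3 without WT-DSS 1 or WT-DSS 2.

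For the noncoding gene itself the deposited symbol taken here as mouse NAIL is Gm16685 (chr3:7612705-7690001), an identity that rests on general knowledge and not on the labels. It was at 0.240 and 1.34 CPM in WT-UT, 5.5 and 11.5 in WT-DSS, 0.237 and 0.325 in ΔNFκB-UT and 5.63 and 8.86 in ΔNFκB-DSS. It rose with DSS in both genotypes (3.36 ± 0.63 and 4.64 ± 0.75), with overlapping levels after DSS and few reads before it. The difference was 1.27 ± 1.04 (adjusted p = 0.408), and -0.48 without WT-UT 2. The labels do not say that the mutant lacks the transcript, so its level checks no label. Of the p38 pathway, 5 of 21 genes were called, a share (23.8%) not far from the 17.7% of all genes tested. Ppm1d, which encodes the phosphatase Wip1 that switches p38 off, was at 8.14 and 9.59 CPM in WT-UT, 10.3 and 10.3 in WT-DSS, 10.5 and 11.4 in ΔNFκB-UT and 9.43 and 9.27 in ΔNFκB-DSS, a difference of -0.44 ± 0.24 (adjusted p = 0.229). Mapk14, p38α itself, was at 74 and 75.5 CPM in WT-UT, 88.6 and 80.9 in WT-DSS, 95.1 and 76.6 in ΔNFκB-UT and 98.9 and 95.6 in ΔNFκB-DSS, a difference within ± 0.17 (1 SE) of 0 (adjusted p = 0.997) whose sign varied with the settings.

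The called pathway members were of unlike roles. Dusp1, a phosphatase that inactivates p38, was at 13.3 and 27.7 CPM in WT-UT, 89.6 and 63 in WT-DSS, 31.3 and 26.7 in ΔNFκB-UT and 15.3 and 25.9 in ΔNFκB-DSS, with a difference of -2.38 ± 0.51 (adjusted p = 0.0201), lost without WT-DSS 1 or ΔNFκB-UT 1 or ΔNFκB-DSS 1. Rps6ka5, the p38-activated kinase MSK1, and Mapk12, p38γ, were negative too, at -1.65 ± 0.39 and -2.17 ± 0.52. Map2k3, the kinase that activates p38, and Gadd45a were positive, at 0.86 ± 0.20 and 1.46 ± 0.38. The call for Rps6ka5 was lost without WT-DSS 1 or WT-DSS 2 or ΔNFκB-UT 1 or ΔNFκB-DSS 2, and that for Map2k3 without WT-UT 2 or WT-DSS 1 or WT-DSS 2 or ΔNFκB-UT 1 or ΔNFκB-DSS 1 or ΔNFκB-DSS 2. The median over the list was -0.31 for the difference, 0.25 for the WT response and 0.18 for the ΔNFκB response; the median difference was -0.15 without WT-DSS 1 and -0.096 without ΔNFκB-DSS 1. The number of calls was 0 without ΔNFκB-UT 1, 1 without WT-DSS 1 or WT-DSS 2 or ΔNFκB-DSS 1 or ΔNFκB-DSS 2 and 2 without WT-UT 2.

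Fibroblast and matrix genes showed the reverse of the cell cycle pattern. Of 33, 26 had called differences (78.8%, against 17.7% of all genes tested), all negative, and all 33 values were below 0. Thbs1, described above, leads the list. In WT mice 20 rose and 3 fell, in ΔNFκB mice 15 fell, and 7 moved in opposite directions. Medians of the list were -2.19 for the difference, 1.16 in WT and -1.04 in ΔNFκB mice. Adamts1, a secreted protease that cleaves proteoglycans, was at 8.38 and 9.05 CPM in WT-UT, 42.2 and 132 in WT-DSS, 14.6 and 15.1 in ΔNFκB-UT and 5.22 and 4.95 in ΔNFκB-DSS. The WT-DSS replicates differed 3-fold but both stood above all others, and the difference was -4.87 ± 0.67 (adjusted p = 0.00733). The collagen genes Col1a1, Col1a2, Col3a1 and Col6a1 had -2.01, -1.97, -1.80 and -2.00, and Dcn, decorin, -2.95, all called. Among members not called were Pdgfra, Postn and Mmp13, at -1.37, -0.91 and -3.63. The count was 6 without ΔNFκB-DSS 2, 10 without ΔNFκB-UT 1, 12 without WT-DSS 2 and 16 without ΔNFκB-DSS 1.

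Endothelial markers followed, with 11 of 17 differences called (64.7%, against 17.7% of all genes tested), all negative, and all 17 below 0. In WT mice 7 rose and 3 fell, in ΔNFκB mice 11 fell, and 3 moved in opposite directions. Over its members the median difference was -2.09, with median responses of 0.76 in WT and -1.51 in ΔNFκB mice. Vwf, the clotting factor carrier of vessel lining, was at 23.9 and 12 CPM in WT-UT, 36.5 and 49.1 in WT-DSS, 18.6 and 17.5 in ΔNFκB-UT and 7.68 and 4.95 in ΔNFκB-DSS, with a difference of -2.77 ± 0.47 (adjusted p = 0.0116). The angiopoietin receptor genes Tie1 and Tek had -2.47 ± 0.44 and -2.00 ± 0.36 (adjusted p = 0.0128 and 0.0133). ΔNFκB-DSS libraries were below all 6 others for each of these 3 genes. Each of the 3 calls was lost without ΔNFκB-DSS 2, and the count was 0 without ΔNFκB-DSS 2 and 4 without WT-DSS 2 or ΔNFκB-UT 1.

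Markers of the enteric nervous system, which lies within the wall, had 15 of 21 called differences, all negative. That is 71.4%, against 17.7% of all genes tested. The markers barely moved in WT mice, with 2 called, and 15 fell in ΔNFκB mice. In the median, the members responded by 0.06 in WT mice and -2.15 in ΔNFκB mice and differed by -2.09. Uchl1, a neuronal deubiquitinase known as PGP9.5, was at 5.99 and 8.25 CPM in WT-UT, 6.86 and 7.97 in WT-DSS, 8.75 and 8.3 in ΔNFκB-UT and 0.820 and 1.13 in ΔNFκB-DSS. The ΔNFκB-DSS libraries were far below the other 6, which overlapped, and the difference was -3.17 ± 0.38 (adjusted p = 0.00567); 18.1% of its exon bases overlap Uchl1os. Stmn2, a microtubule regulator of neurons, and Cdh19, a cadherin of glia, had -2.61 ± 0.37 and -2.92 ± 0.43 (adjusted p = 0.00764 and 0.00809). Vip, the neuropeptide, and Nos1, the nitric oxide synthase of inhibitory neurons, had -3.46 and -1.88, both called. The count was 5 without ΔNFκB-DSS 2 and 9 without WT-DSS 2 or ΔNFκB-UT 1.

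Smooth muscle markers fell in both genotypes, 14 of 18 in WT and 17 in ΔNFκB mice. The difference was called in 5 (27.8%, against 17.7% of all genes tested), all negative. The median over the list was -0.64 for the difference, -1.52 for the WT response and -2.37 for the ΔNFκB response; the median difference was -1.13 without WT-UT 1, -1.11 with a sex term and -0.38 without WT-UT 2. Lmod1, an actin nucleator, had -1.45 ± 0.29 (adjusted p = 0.0166), Hspb7 -2.58 ± 0.65 (adjusted p = 0.0315) and Tpm2, a tropomyosin, -0.91 ± 0.24 (adjusted p = 0.0365). Lmod1 measured 36.8 and 29.2 CPM in WT-UT, 21.7 and 15.8 in WT-DSS, 42.3 and 43.1 in ΔNFκB-UT and 7.68 and 10.1 in ΔNFκB-DSS. The calls were lost for Lmod1 without ΔNFκB-DSS 1, for Hspb7 without WT-DSS 2 or ΔNFκB-UT 1 or ΔNFκB-UT 2 or ΔNFκB-DSS 1 or ΔNFκB-DSS 2 and for Tpm2 without WT-DSS 1 or WT-DSS 2 or ΔNFκB-UT 1 or ΔNFκB-UT 2 or ΔNFκB-DSS 1 or ΔNFκB-DSS 2. The bulk contractile genes Acta2, Myh11 and Actg2 were not called, at -0.65, -0.75 and 0.46. The count was 0 without ΔNFκB-DSS 1, 1 without WT-DSS 2 or ΔNFκB-UT 1 or ΔNFκB-UT 2 or ΔNFκB-DSS 2, 2 without WT-DSS 1 and 14 without WT-UT 1, and 14 with a sex term.

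The fibroblast, endothelial and neuron lists were alike in which libraries were lowest, but not across all libraries. Other wall lists followed them only in part. The fibroblast list summed to 4936 and 2655 CPM in WT-UT, 5267 and 8621 in WT-DSS, 4041 and 4170.3 in ΔNFκB-UT and 1831 and 1497 in ΔNFκB-DSS, the endothelial list to 198 and 142 CPM in WT-UT, 229.9 and 330.3 in WT-DSS, 196 and 149.9 in ΔNFκB-UT and 71.7 and 51.9 in ΔNFκB-DSS and the neuron and glia list to 168 and 169 CPM in WT-UT, 186 and 248 in WT-DSS, 152 and 127 in ΔNFκB-UT and 40.9 and 36.1 in ΔNFκB-DSS. All 3 were lowest in the 2 ΔNFκB-DSS libraries, without overlap with any other library. The smooth muscle list summed to 10110.1 and 5445 CPM in WT-UT, 2417 and 2004 in WT-DSS, 8304 and 8616 in ΔNFκB-UT and 1738 and 1729 in ΔNFκB-DSS, so that both DSS groups were far below the untreated ones and ΔNFκB-DSS a little below WT-DSS. Markers of pacemaker cells, which set the rhythm of the muscle, summed to 377 and 367 CPM in WT-UT, 151 and 96.1 in WT-DSS, 349.8 and 427 in ΔNFκB-UT and 188 and 171 in ΔNFκB-DSS. This sum too was lower in every DSS library than in the untreated ones, but with ΔNFκB-DSS above WT-DSS. In the median over members the order was the reverse, at -0.58 and -0.60 in ΔNFκB-DSS against -0.37 and -0.27 in WT-DSS. These medians are of log2(CPM + 0.5) minus the mean of the gene over the 8 libraries. Of 4 differences 1 was called, Etv1 at -1.01. WT-UT 1 held more fibroblast and smooth muscle RNA than WT-UT 2. How deeply the wall was included in each piece of colon is not stated in the labels, and its part in these results was not tested. Nor was its part in the epithelial lists with positive differences, which were measured in the same libraries.

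**Figure D5:**
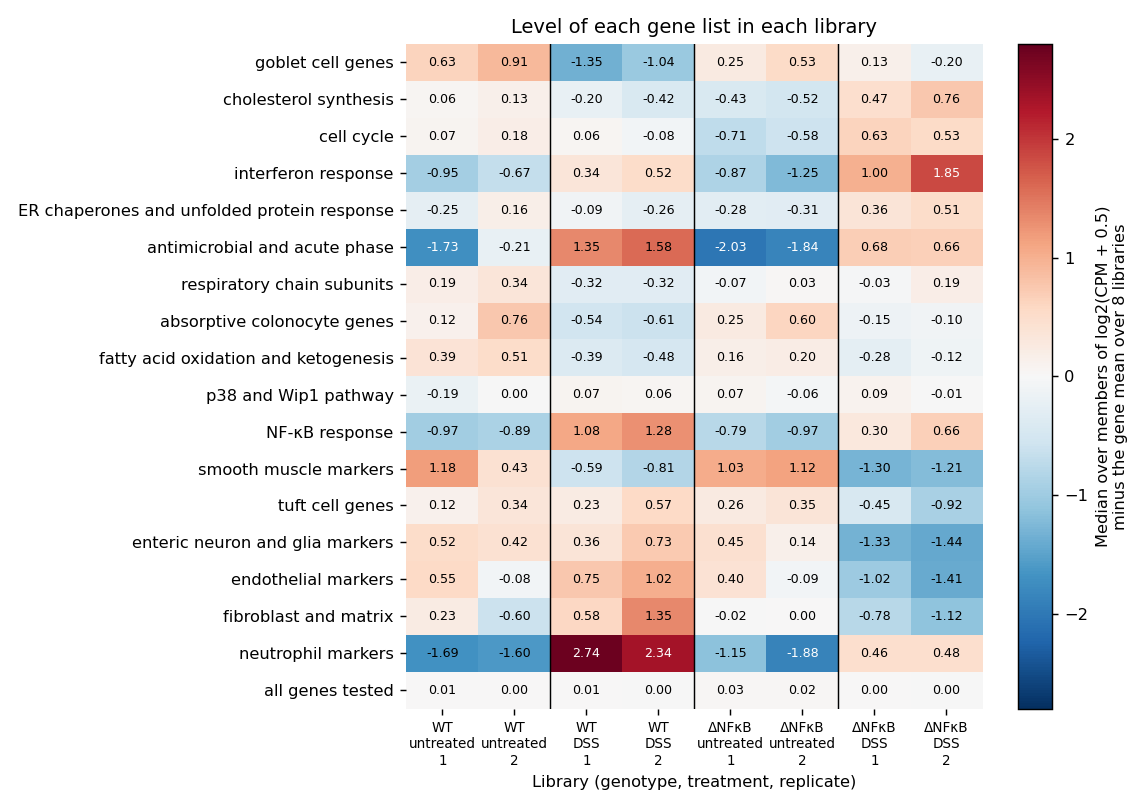
Level of each list in each of the 8 libraries, with lists in rows, libraries in columns and the value in each cell. Each value is the median over members of log2(CPM + 0.5) minus the mean of the gene over the 8 libraries. The fibroblast, endothelial and neuron rows are lowest in the 2 ΔNFκB-DSS columns, and the goblet row is lowest in the 2 WT-DSS columns.

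Some lists had few called differences, which does not show that the genotypes were alike in them. Cytosolic ribosomal proteins had no called difference among 32 members by edgeR, DESeq2 or limma-voom (1 at an unadjusted p under 0.05). MHC class II genes had no call among 11 with any of the 3 tools, also without adjustment. After DSS, 2 members of each of these lists were called between the genotypes, as were 20% of all genes tested. Of 16 enteroendocrine genes, 3 were called (18.8%, near the 17.7% of all genes tested), all negative. Their list had 8 values above 0 and 8 below, and 1 call with a sex term. Mast cell markers had 1 call of 5, positive, and 3 were called between the genotypes after DSS. T and NK cell markers and B and plasma cell markers had 1 call each, of 21 and 16 members, both positive. Their medians were -1.69 and -1.92, with wide spread between replicates: the T and NK median turned to 0.22 without ΔNFκB-UT 1, and the B and plasma median ran from -6.59 to -0.62 with 1 library left out. The T and NK count was 10 without ΔNFκB-UT 2. Markers of other tissues and cells that a dissection could include were present at unequal levels. Skeletal muscle genes summed to 4.74 to 26.3 CPM, red blood cell genes to 4.41 to 24.0, mast cell genes to 22.4 to 71.7, mesothelial genes to 69.4 to 203 and stratified squamous genes to 89.0 to 229. Adipocyte genes summed to 154 and 356 CPM in WT-UT, 56.6 and 73.4 in WT-DSS, 167 and 152 in ΔNFκB-UT and 31.1 and 28.1 in ΔNFκB-DSS, with WT-UT 2 above all other libraries. Neither the 4 skeletal muscle, the 8 mesothelial nor the 4 red blood cell markers had a called difference with any of the 3 tools (2 of the red blood cell markers at an unadjusted p under 0.05), and adipocyte and stratified squamous markers had 1 each, of 11 and 10 (Plin4 at -1.69 and Sbsn at -3.36). After DSS, 3 of the 4 red blood cell markers were called between the genotypes, against 20% of all genes tested. The part of these tissues in the results was not tested. The labelled tissue held its markers: the posterior Hox genes of the distal colon summed to 228 to 471 CPM, with no call among 6 by the 3 tools and 1 at an unadjusted p under 0.05.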

How the data were processed

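The authors deposited estimated counts per gene for each library, without normalization. Of the nonzero values 18.8% were not whole. Per the submitters' processing notes the tools were HISAT2 2.1, SAMtools 1.8 and featureCounts of Subread 1.6.2 on mm10. The annotation, strand setting and the reason for fractional counts were not given in those sources. A design for whole counts had been planned, so the values of symbols on more than 1 line were summed and rounded to whole numbers. Genes were kept by edgeR's filterByExpr, leaving 17522, scaled by TMM factors (0.882 to 1.15) and fitted over all 8 libraries with edgeR 4.0.16 (R 4.3.3), as a quasi-likelihood model with 1 mean per group and 4 residual degrees of freedom. The biological coefficient of variation was 17.1%. Standard errors are the log2 value divided by the square root of F, and p-values were adjusted by Benjamini-Hochberg over all genes tested. CPM use the TMM-scaled library sizes. With 9229861 to 16935961 reads a library, 3 reads equal 0.201 to 0.309 CPM, which covers counting error only.

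Genes were named by rule: the 6 smallest p in each direction, the 5 leading opposite genes of each kind, the 4 leading same-direction genes of each kind, up to 3 genes of smallest p in every list that is described, and 7 genes of the locus, p38 and NF-κB. Genes were taken only above a mean log2 CPM of 1. Other list members were named after their values were seen. Some genes that the rule chose are not reported here. The comparison, the members and the lists were chosen with earlier results of these data known. Alternatives were other scalings (RLE, upper quartile), DESeq2 1.42.0, limma-voom 3.58.1, filters on low counts, the Ensembl-keyed table, a replicate block, a sex term, 4 kinds of abundant RNA left out, and each library left out. The fit was tested on simulated counts. Exon overlap was read from the GRCm38.p6 annotation and promoter windows from RefSeq. The motifs spelled out in the text were searched on both strands in windows of 300 bases, and any overlap between them was kept; the sterol element was added later.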

Additional observations from a re-analysis of the deposited data

Results flagged for a closer look

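The interaction term tested whether the effect of DSS differed between WT and ΔNFκB mice, and it did so in 3102 genes by edgeR's quasi-likelihood test (17.7% of those tested). In 337 of them the effect was called in opposite directions in the genotypes. No library was tested for standing apart from its group, since groups of 2 allow no such test.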

How the results depend on the processing

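With 1 library left out, the number of genes called ranged from 512 to 3738 for the difference of the responses, from 3400 to 6203 for the WT response and from 3454 to 6616 for the ΔNFκB response. It ranged from 101 to 516 for opposite responses, from 507 to 3843 for genotype after DSS and from 0 to 201 for genotype without DSS. These fits have fewer samples, and the lone library of a group is assumed to vary like the others. The difference was called in 2631 genes by DESeq2, 2778 by limma-voom, 3144 with RLE factors, 2945 with upper quartile factors, 3683 with no filter on low counts and 3772 with a sex term. The sex term gave 3343 ΔNFκB response calls, 102 opposite genes and 176 genotype calls without DSS; DESeq2 gave 264 of the last and no count filter 330. The cause was not tested.

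Replicate numbers are shared by the groups, but same-numbered libraries deviated together with correlations of only -0.126 to 0.244, so the numbers are not taken as pairs. A fit with the replicate block called 3038 differences and 0 genotype calls without DSS (edgeR; 2824 genes at an unadjusted p under 0.05, and 264 called by DESeq2 without the block). All 67 called genes named by rule kept their sign in all 18 alternatives, and 42 stayed past the threshold in each; 66 of 1206 values missed it, 22 of them without ΔNFκB-DSS 2. Among genes never called, Gm16685 ranged from -0.48 to 1.95 and Tnf from -1.12 to 1.45 with 1 library left out, both lowest without WT-UT 2. Mapk14 turned to 0.014 with RLE factors or DESeq2, 0.0076 by limma-voom, 0.027 with no count filter, 0.0061 with the replicate block, 0.012 with a sex term and up to 0.141 with 1 library left out, from a lowest value of -0.168. With 2 libraries a group, a missed threshold gives no bound on a difference.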

Other observations

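Of 25 monocyte and macrophage markers, 4 differences were called, all negative, a share (16%) near the 17.7% of all genes tested. Arg1 and Chil3, which mark wound-repair macrophages in mice, rose in WT mice, at 0.240 and 0 CPM in WT-UT, 14.4 and 11.9 in WT-DSS, 0.315 and 0.244 in ΔNFκB-UT and 0.615 and 0.618 in ΔNFκB-DSS for Arg1 and 0.319 and 0 CPM in WT-UT, 53.7 and 68.6 in WT-DSS, 1.42 and 0.0813 in ΔNFκB-UT and 7.58 and 8.55 in ΔNFκB-DSS for Chil3. Their adjusted p for the difference was 0.0144 and 0.0294 (edgeR). Clec10a and Cd163, carried by resident macrophages, fell in ΔNFκB mice and were not called in WT mice, with differences of -3.08 ± 0.71 and -2.93 ± 0.80 (adjusted p = 0.0259 and 0.0402). The general markers Csf1r, C1qa and Adgre1 were not called, at -0.51, -0.66 and 0.45. The count of 4 was 0 without ΔNFκB-DSS 2, 1 without WT-DSS 2 or ΔNFκB-DSS 1 and 2 without ΔNFκB-UT 1.

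Of 20 crypt base genes, 2 positive and 1 negative difference were called (15%, against 17.7% of all genes tested). Lgr5, the stem cell receptor, was at 15.3 and 6.98 CPM in WT-UT, 0.290 and 0 in WT-DSS, 7.65 and 6.35 in ΔNFκB-UT and 4.82 and 2.68 in ΔNFκB-DSS, with an adjusted p of 0.014; the 2 WT-DSS libraries held 3 reads together, so no fold is given. Axin2, Ascl2 and Smoc2 were not called, at 0.45, 0.21 and -0.11. Of 28 wound-associated epithelial genes, 6 were called (21.4%, near the 17.7% of all genes tested). Over the list 13 differences were above 0 and 15 below. The median was -0.20, but 0.058 with a sex term and 0.037 without WT-UT 1. Among the called differences 5 were negative, including Krt23 at -3.01 ± 0.60, Ereg at -3.07 ± 0.74 and Il33 at -1.89 ± 0.38 (adjusted p = 0.0169, 0.0285 and 0.0176). That of Ly6a, the Sca-1 antigen and also an interferon-induced gene, was positive at 1.84 ± 0.46 (adjusted p = 0.0308). The counts of 3 and 6 were 0 without WT-DSS 2 and 1 without ΔNFκB-UT 1 for the first list and 2 without ΔNFκB-DSS 2 and 3 without WT-DSS 2 or ΔNFκB-UT 1 for the second. Of 17 immediate early genes, 4 were called (23.5%, not far from the 17.7% of all genes tested). These were Nr4a1, Klf2, Ier3 and Dusp1, all negative, and Fos, Jun and Egr1 were not called. That count was 2 without ΔNFκB-UT 1 or ΔNFκB-DSS 2 and 7 without WT-UT 1, and 7 with a sex term.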
